A study of Mus with 12 samples.

Results

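Mitosis and cytokinesis genes encode the machinery that condenses and separates chromosomes and then divides the cell. The 39 members are the transcripts of the proteins that start mitosis, hold chromosomes on the spindle, monitor their attachment and split the cell at its middle, together with 2 transcription factors that drive this group. They were chosen by gene name, as rows with an Ensembl mouse transcript in the 2 deposited FPKM tables, a rule that uses no measured value, although the list of names was drawn up with earlier results of these data known. All 39 had exactly 1 row in each table, among 80228 named rows of the first and 39455 of the second, and all 39 passed the filter on low values in both. The uteri came from 12 pregnant mice of ICR, an outbred strain, that were 8 weeks old by the labels and otherwise untreated. The study gives the same age at mating for all, so mice taken at E15.5 and E18.5 were older at collection than those at E0.5 and E4.5. Each library held the whole uterus of 1 mouse, with 3 mice at E0.5, 3 at E4.5, 3 at E15.5 and 3 at E18.5. E0.5 and E4.5 form the embryo implantation stage and were assembled into the first table, and E15.5 and E18.5 form the labor stage and the second table. The study picked these days because serum progesterone (P4) changes across both stages, and compared E0.5 with E4.5 and E18.5 with E15.5.

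Most of these transcripts build up only in dividing cells, in late G2 and mitosis, and are destroyed or repressed once a cell leaves the cycle. Cyclin B with Cdk1 starts mitosis, the kinetochore attaches chromosomes to the spindle, the spindle checkpoint delays anaphase until attachment is complete, and the anaphase-promoting complex then ends mitosis by marking cyclin B and securin for destruction. In the mouse uterus, epithelial cells divide under estrogen around the time of mating, and stromal cells divide under P4 and estrogen as the uterus becomes receptive and then decidualizes around the embryo.

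The libraries of the implantation stage held 58020989 to 70906881 counts, and those of the labor stage had no counts, so that only their relative depth was recovered (0.644 to 1.05 of E15.5 replicate 1). Uterine markers were present in all 12 libraries, with summed values of 76.0 to 923 FPKM for epithelium, 200.5 to 1762 FPKM for stroma and 208 to 4482 FPKM for smooth muscle. In 2 libraries the sum of the ovary or decidua markers stood apart. E4.5 replicate 3 had 1468 FPKM of 15 ovary markers, against 9.01 to 11.5 FPKM in the other 5 libraries of its table, and the lowest smooth muscle sum. E15.5 replicate 1 had 1354 FPKM of 6 decidua markers, against 58.6 to 99.0 FPKM in the other 5, and the highest sum of 11 uterine NK cell markers (9928 FPKM). The main counts below are given with and without these 2 libraries. Yolk sac sums were also uneven at the labor stage, from 14.0 FPKM in E15.5 replicate 1 to 1089 FPKM in E15.5 replicate 3. FPKM is the number of fragments per kilobase of transcript, scaled to the fragments mapped in the library, so it compares genes of different length. The 2 tables were normalized separately, so levels were tested only within a table.

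At the implantation stage, the members were lower at E0.5 than at E4.5. Their summed level was 17.0, 18.8 and 22.7 FPKM in the uteri of E0.5 mice, compared with 126, 79.0 and 97.2 FPKM in those of E4.5 mice, and the groups did not overlap. In whole-uterus RNA, fewer dividing cells and less RNA of these genes per dividing cell cannot be told apart. The fitted log2 fold change (E0.5 minus E4.5) was negative for 39 of 39 members, with a median of -2.53 against -0.03 over all 52738 rows tested, or 5.79-fold lower at E0.5. In edgeR's quasi-likelihood F-test, with p-values adjusted over all rows by the Benjamini-Hochberg method, 26 members were downregulated at E0.5 and 0 upregulated, where the same rule called 0.569% of all rows lower. By the study's own criterion, which asks for a log2 fold change of 1 or more in either direction and an unadjusted p below 0.05, 38 of 39 were lower, where 5.98% of all rows were. The 3 libraries of each day did not overlap for 38 members, all lower at E0.5, against 13.4% of all rows. Incenp was the exception in both counts of 38.

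The number of members past the adjusted p depended on which libraries entered the fit. Without E4.5 replicate 3, the library with the ovary markers, 38 members were past the adjusted p, where the same fit called 3.39% of all rows lower, and the median log2 fold change was -2.52. Leaving out E0.5 replicate 1, 2 or 3 left 0 members past it each time, leaving out E4.5 replicate 1 left 1 and leaving out E4.5 replicate 2 left 8, in fits that called at most 0.0910% of all rows lower, while 37 or 38 members met the study's criterion and the median stayed between -2.71 and -2.30. DESeq2 called 38 members lower, with 5.01% of all rows, and limma on log2(FPKM + 0.1) called 15, with 0.550% of all rows. The 95% interval of the log2 fold change lay wholly below -1, a 2-fold difference, for 33 members.

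**Figure D1:**
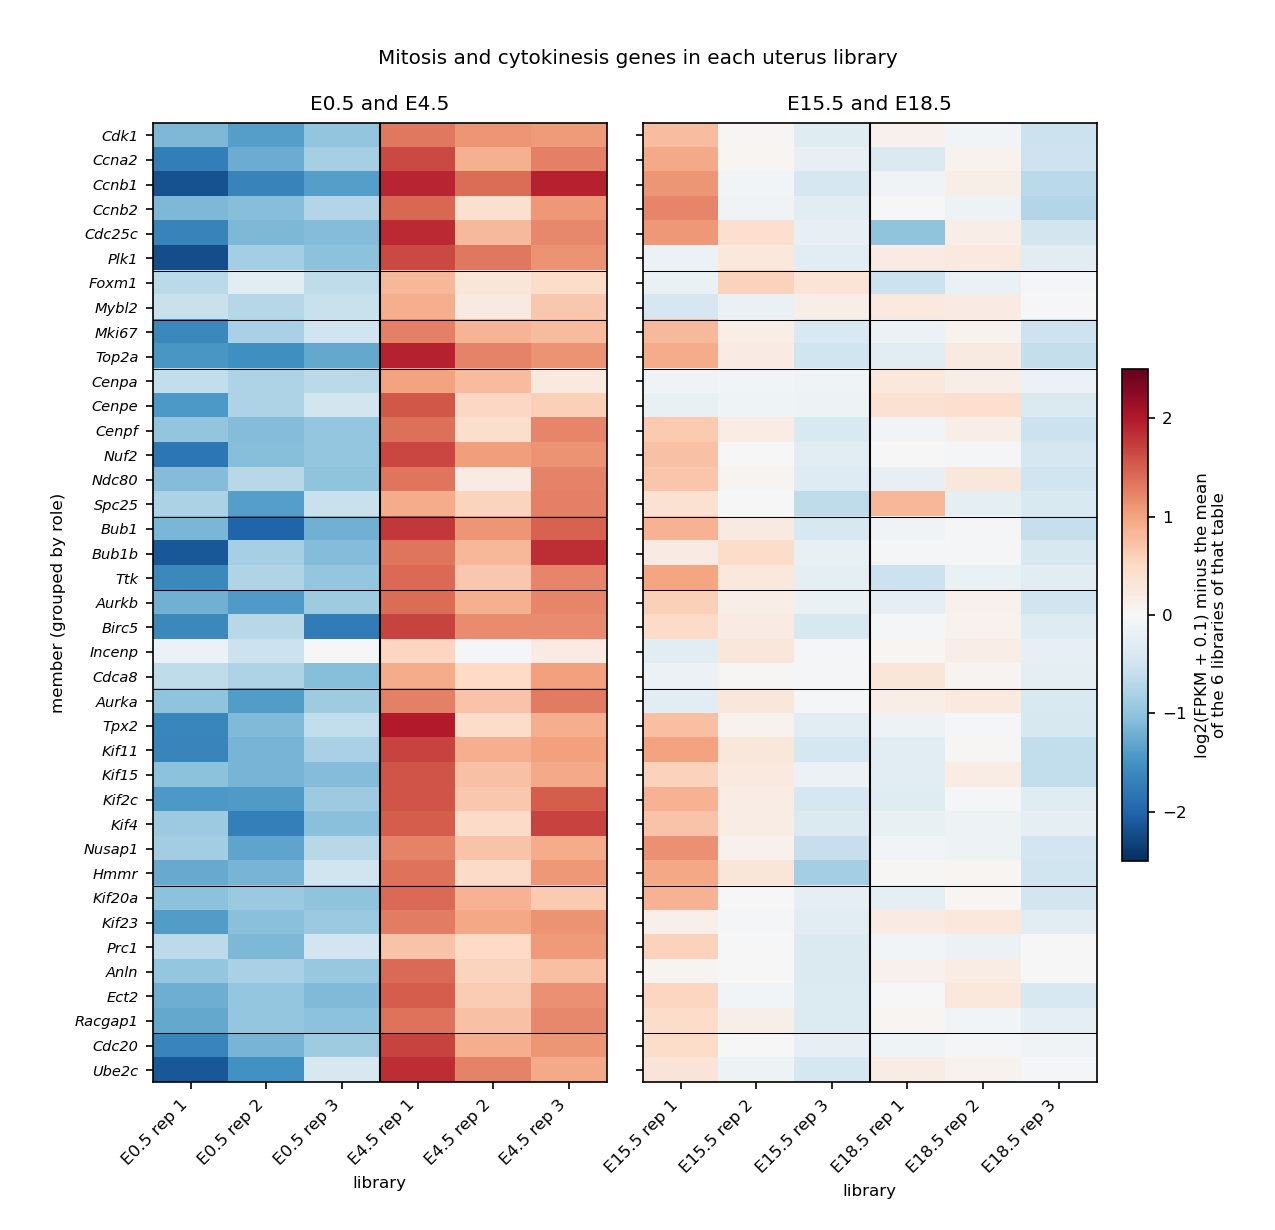
Each cell shows log2(FPKM + 0.1) of 1 member in 1 library minus the mean of the 6 libraries of that table, with members in rows grouped by role and libraries in columns. The E0.5 libraries were below the mean for nearly every member and the E4.5 libraries above it, with Incenp the palest row, whereas E15.5 replicate 1 was the library furthest above the mean in the second table, where it was the highest of 6 for 27 of 39 members.

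Among the 6 genes of mitotic entry, 5 were downregulated at E0.5 by the adjusted p and all 6 by the study's criterion. Ccnb1, cyclin B1, which activates Cdk1 at the start of mitosis, had 0.172, 0.287 and 0.372 FPKM at E0.5, against 4.54, 3.16 and 4.56 FPKM at E4.5. The lowest E4.5 library was 8.49 times the highest E0.5 library, the widest gap of any member. Its log2 fold change of -3.84 ± 0.376 (SE), or 14.3-fold lower at E0.5, was the largest of the 39 (adjusted p = 0.0167). Its row (chromosome 13, 100778650 to 100786570, GRCm38, minus strand) held 62 to 139 counts per E0.5 library and 1091 to 1629 per E4.5 library. Cdc25c, the phosphatase that removes the inhibitory phosphates from Cdk1, had 0.0655, 0.142 and 0.147 FPKM at E0.5, against 1.81, 0.818 and 1.11 FPKM at E4.5. It followed Ccnb1 in size, at 10.2-fold lower (log2 fold change -3.35 ± 0.485, adjusted p = 0.0348), from 29 to 64 counts per E0.5 library. Cdk1, the kinase itself, had 0.678, 0.556 and 0.757 FPKM at E0.5, against 4.10, 3.54 and 3.42 FPKM at E4.5. With tight replicates on both days it had the lowest adjusted p of the members, 0.0138, at a log2 fold change of -2.44 ± 0.217.

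The other cyclins of this step had higher mean levels than Ccnb1 on both days. At E4.5 the libraries of Ccnb2 overlapped those of Ccnb1, and those of Ccna2 overlapped them in 1 library. Ccna2, cyclin A2, which acts from S phase into early mitosis, had 0.617, 0.902 and 1.22 FPKM at E0.5, against 7.29, 4.27 and 5.57 FPKM at E4.5 (log2 fold change -2.62 ± 0.351, adjusted p = 0.0293). Ccnb2, the second B-type cyclin, had 0.96, 0.991 and 1.28 FPKM at E0.5, against 6.10, 2.94 and 4.74 FPKM at E4.5. Its fold, 4.21, was the smallest of the group and its adjusted p was 0.0490. Plk1, the polo-like kinase that promotes entry and later cytokinesis, averaged 0.504 ± 0.260 FPKM (SD, n = 3) on E0.5, compared with 3.63 ± 0.696 FPKM on E4.5, with an adjusted p of 0.0505 at a 7.06-fold difference. Both B-type cyclins have pseudogenes with rows of their own, between which reads can be split. The row of Ccnb1-ps held 2, 0 and 13 counts at E0.5, against 65, 24 and 68 at E4.5, and that of Ccnb2-ps held 374, 335 and 352 counts at E0.5, against 415, 387 and 439 at E4.5, more than the 113 to 171 counts of Ccnb2 itself at E0.5.

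The 2 transcription factors had the smallest differences of any role besides Incenp. Foxm1 and Mybl2 bind the promoters of mitotic genes together with the MuvB complex. Mybl2 had 0.526, 0.461 and 0.524 FPKM at E0.5, against 1.62, 0.978 and 1.37 FPKM at E4.5, which did not overlap (log2 fold change -1.37 ± 0.278, adjusted p = 0.0688). The row that holds Foxm1 also merges Tex52, Nrip2 and 2 predicted genes, so its reads are not those of Foxm1 alone. It had 0.457, 0.639 and 0.473 FPKM at E0.5, against 1.49, 1.0 and 1.12 FPKM at E4.5 (log2 fold change -1.18 ± 0.261, adjusted p = 0.0821). Both met the study's criterion and neither passed the adjusted p.

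Of the 2 genes of chromosome structure, Top2a was the most abundant member at E4.5. It encodes topoisomerase II alpha, which untangles sister chromatids, and its row on chromosome 11 (98992943 to 99024189, GRCm38, minus strand) also covers the predicted gene Gm23451. Top2a had 1.13, 1.06 and 1.29 FPKM at E0.5, against 12.7, 7.87 and 7.28 FPKM at E4.5, from 746 to 1063 and 5564 to 10157 counts per library. It was 7.90-fold lower at E0.5 (log2 fold change -2.98 ± 0.287, adjusted p = 0.0167). Mki67, which coats mitotic chromosomes and whose Ki-67 protein is the usual stain for dividing cells, had 0.468, 0.892 and 1.13 FPKM at E0.5, against 4.06, 3.03 and 2.90 FPKM at E4.5. Its groups did not overlap, and its log2 fold change of -1.98 ± 0.366 had an adjusted p of 0.0572.

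Of the 6 kinetochore genes, Cenpf and Nuf2 passed the adjusted p and all 6 met the study's criterion. Cenpf, a large protein of the outer kinetochore, had 0.247, 0.224 and 0.251 FPKM at E0.5, against 1.67, 0.833 and 1.51 FPKM at E4.5 (log2 fold change -2.45 ± 0.310, adjusted p = 0.0261). Nuf2, a subunit of the Ndc80 complex that grips microtubules, had 0.0486, 0.149 and 0.167 FPKM at E0.5, against 1.56, 0.967 and 1.03 FPKM at E4.5. It was 9.42-fold lower at E0.5 (adjusted p = 0.0460). Its partner Ndc80 was the least abundant member on both days, at 0.0782 ± 0.0269 FPKM (SD, n = 3) and 0.576 ± 0.251 FPKM, and was 7.13-fold lower at E0.5 with an adjusted p of 0.0509. Spc25, another subunit of that complex, was 4.19-fold lower (adjusted p = 0.0592). Cenpa, the histone variant that marks the centromere, had 0.841, 0.745 and 0.797 FPKM at E0.5, against 2.79, 2.37 and 1.61 FPKM at E4.5. At 2.80-fold it had the smallest difference of the kinetochore genes (adjusted p = 0.0538), and the motor Cenpe was 4.42-fold lower with an adjusted p of 0.0953.

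All 3 spindle checkpoint genes met the study's criterion. Bub1, the kinase that recruits the checkpoint to kinetochores, had 0.402, 0.177 and 0.384 FPKM at E0.5, against 3.71, 2.28 and 3.00 FPKM at E4.5. It was 9.11-fold lower at E0.5 (log2 fold change -3.19 ± 0.399, adjusted p = 0.0254). Ttk, the kinase Mps1 at the head of the checkpoint, had 0.149, 0.351 and 0.291 FPKM at E0.5, against 1.93, 1.11 and 1.67 FPKM at E4.5 (5.83-fold lower, adjusted p = 0.0463). Bub1b, the BubR1 subunit of the inhibitor of the anaphase-promoting complex, had 0.234, 0.717 and 0.585 FPKM at E0.5, against 3.57, 2.45 and 5.08 FPKM at E4.5. Its E4.5 libraries differed by more than 2-fold among themselves, the one with the ovary markers being the highest, and its adjusted p was 0.0512 with that library and 0.0264 without it.

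The 4 subunits of the chromosomal passenger complex did not differ alike. This complex carries the kinase Aurkb from centromeres to the spindle midzone. Aurkb had 0.468, 0.387 and 0.603 FPKM at E0.5, against 3.34, 2.33 and 2.97 FPKM at E4.5 (5.78-fold lower, adjusted p = 0.0222). Birc5, survivin, had 0.193, 0.451 and 0.164 FPKM at E0.5, against 2.80, 1.93 and 1.93 FPKM at E4.5 (8.06-fold lower, adjusted p = 0.0414). Cdca8, borealin, had 0.353, 0.314 and 0.238 FPKM at E0.5, against 1.25, 0.895 and 1.34 FPKM at E4.5 (3.76-fold lower, adjusted p = 0.0389). These 3 subunits were downregulated at E0.5 and their groups did not overlap. Incenp, the scaffold that binds the other subunits, had 2.01, 1.49 and 2.2 FPKM at E0.5, against 3.27, 2.18 and 2.56 FPKM at E4.5, with the highest E0.5 library above the lowest E4.5 library. Its log2 fold change was -0.47 ± 0.251, with a 95% interval from -1.07 to 0.12 and an adjusted p of 0.375. Incenp was the most abundant of the 39 members at E0.5 (1.9 ± 0.366 FPKM, SD, n = 3). The ratio of its level to the mean level of its 3 partners, computed after these values were seen, was 5.95, 3.89 and 6.56 in the E0.5 uteri but 1.33, 1.26 and 1.23 in the E4.5 uteri. These ratios did not overlap, but they restate the levels above, for which Incenp was picked, and are no separate test. An exact permutation test of 3 against 3 libraries cannot go below a two-sided p of 0.1. At the labor stage the same ratios overlapped, at 3.42, 3.48 and 3.81 in the E18.5 uteri and 2.01, 3.61 and 3.82 in the E15.5 uteri.

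Of the 8 genes of spindle assembly, 6 were downregulated at E0.5 by the adjusted p and all 8 by the study's criterion. Aurka, the aurora kinase of the spindle poles, was the most abundant, at 0.687, 0.496 and 0.754 FPKM at E0.5, against 3.69, 2.48 and 3.78 FPKM at E4.5 (5.05-fold lower, adjusted p = 0.0261). Kif2c, which depolymerizes microtubules at centromeres, had 0.127, 0.132 and 0.230 FPKM at E0.5, against 1.72, 0.883 and 1.66 FPKM at E4.5. At 8.45-fold it had the largest difference of this role (adjusted p = 0.0305). Kif11, the motor that pushes the spindle poles apart, had 0.196, 0.320 and 0.436 FPKM at E0.5, against 2.92, 1.65 and 1.79 FPKM at E4.5 (6.59-fold lower, adjusted p = 0.0368). Kif15, which can take over from Kif11, had 0.204, 0.175 and 0.193 FPKM at E0.5, against 1.74, 0.932 and 1.1 FPKM at E4.5 (6.48-fold lower, adjusted p = 0.0226). None of these 4 genes overlapped between the days.

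The X-linked chromokinesin Kif4 had 0.284, 0.12 and 0.249 FPKM at E0.5, against 1.95, 0.909 and 2.22 FPKM at E4.5 (7.63-fold lower, adjusted p = 0.0463). Nusap1, which bundles spindle microtubules, had 0.455, 0.310 and 0.527 FPKM at E0.5, against 2.31, 1.56 and 1.83 FPKM at E4.5 (4.35-fold lower, adjusted p = 0.0352). The remaining pair missed the adjusted p. Tpx2, the activator of Aurka, was 6.01-fold lower at E0.5, with an adjusted p of 0.0762 and E4.5 libraries that ran from 1.24 to 3.74 FPKM, and Hmmr, a hyaluronan receptor that also binds spindle microtubules, was 5.79-fold lower (adjusted p = 0.0610).

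All 6 genes of the midzone and cytokinesis were downregulated at E0.5 by the adjusted p, the only role of which this was so in the main fit. Without E4.5 replicate 3, and in DESeq2, every member but Incenp passed it, so this contrast between roles depended on the fit. It was not tested. Kif23, a motor subunit of centralspindlin, had 0.192, 0.273 and 0.308 FPKM at E0.5, against 1.78, 1.40 and 1.59 FPKM at E4.5 (log2 fold change -2.58 ± 0.271, adjusted p = 0.0194). Racgap1, its partner in centralspindlin, had 0.254, 0.344 and 0.323 FPKM at E0.5, against 2.11, 1.33 and 1.87 FPKM at E4.5. The partners had similar differences, 5.99-fold for Kif23 and 5.64-fold for Racgap1 (adjusted p = 0.0216). Ect2, which activates RhoA at the cleavage site, had 0.643, 0.788 and 0.701 FPKM at E0.5, against 4.8, 2.57 and 3.72 FPKM at E4.5 (5.11-fold lower, adjusted p = 0.0254). Anln, anillin, which ties the contractile ring to RhoA, had 0.740, 0.832 and 0.746 FPKM at E0.5, against 4.26, 2.31 and 2.65 FPKM at E4.5 (3.94-fold lower, adjusted p = 0.0358). Both Ect2 and Anln were even across the E0.5 libraries and spread at E4.5, where replicate 1 was the highest. The motor Kif20a, which carries the passenger complex to the midzone, had 0.714, 0.781 and 0.733 FPKM at E0.5, against 4.37, 2.95 and 2.52 FPKM at E4.5 (4.36-fold lower, adjusted p = 0.0282). Prc1, which bundles the midzone, had 0.672, 0.460 and 0.770 FPKM at E0.5, against 1.89, 1.63 and 2.45 FPKM at E4.5, and at 3.07-fold it was the least different of this role (adjusted p = 0.0476).

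The 2 partners of the anaphase-promoting complex met the study's criterion. Cdc20, its mitotic activator, had 0.631, 0.925 and 1.14 FPKM at E0.5, against 7.32, 4.24 and 4.85 FPKM at E4.5 (5.99-fold lower, adjusted p = 0.0314). Ube2c, the ubiquitin-conjugating enzyme of the complex, was 7.60-fold lower, with an adjusted p of 0.0960. Its E0.5 libraries were uneven, at 0.0843, 0.178 and 0.499 FPKM from 19, 36 and 114 counts.

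The same libraries were high or low for most members. E4.5 replicate 1 was the highest of the 6 libraries for 32 members and E4.5 replicate 3 for the other 7. The lowest library was E0.5 replicate 1 for 23 members, E0.5 replicate 2 for 14 and E0.5 replicate 3 for 2. In all 3 E0.5 libraries, 33 members were under 1 FPKM, and in all 3 E4.5 libraries 28 members were at 1 FPKM or more. Marker sums also differed between these libraries, and their part in the members' difference was not tested. The 9 stroma markers summed to 376 to 554 FPKM at E0.5 and 200 to 414 FPKM at E4.5. By the criterion 1 was lower at E0.5 and 1 higher, and 0 passed the adjusted p. Without E4.5 replicate 3, Hand2 (-3.36, adjusted p = 0.00178) and Hoxa10 (-1.53, adjusted p = 0.00719) passed it as lower and Dcn (1.37, adjusted p = 0.0284) as higher. The 8 epithelial markers summed to 237 to 285 FPKM at E0.5 and 76.0 to 165 FPKM at E4.5, and 4 of the 8 met the study's criterion as higher at E0.5, of which the keratins Krt8 (1.97, adjusted p = 0.0231) and Krt19 (2.23, adjusted p = 0.0459) passed the adjusted p. The 11 uterine NK cell markers summed to 9.73 to 26.3 FPKM at E0.5 and 5.10 to 146 FPKM at E4.5, and of the 9 rows that hold them (1 row merges Gzme, Gzmd and Gzmg) 2 met the criterion as lower at E0.5, while 0 passed the adjusted p. Without E4.5 replicate 3, 7 of the 9 met the criterion and 4 passed the adjusted p, Gzmc (-3.10, adjusted p = 0.00347) and Gzmf (-3.78, adjusted p = 0.0151) among them. The 9 leukocyte markers summed to 30.9 to 41.1 FPKM at E0.5 and 19.6 to 21.5 FPKM at E4.5, without overlap. Of the 7 tested, 3 met the criterion as higher at E0.5 and 2 passed the adjusted p, Itgam (log2 fold change 3.53, adjusted p = 0.0105), whose row merges 2 predicted genes, and Csf1r (1.88, adjusted p = 0.0442). The 13 trophoblast and placenta markers summed to 15.4 to 31.5 FPKM at E0.5 and 3.46 to 4.31 FPKM at E4.5, without overlap, with 7 of them, Tpbpa included, at 0 in all 6 libraries. Only 1 of the 13 averaged 1 FPKM or more. Of the 4 tested, 2 were negative and 2 positive, and Peg10 alone met the criterion and passed the adjusted p (3.61, adjusted p = 0.0414). The sums of the 6 decidua markers overlapped, at 17.7 to 21.6 FPKM and 14.2 to 21.0 FPKM. Of the 5 tested, 2 met the criterion as lower at E0.5 and 1 as higher. Bmp2 was lower (-3.42, adjusted p = 0.0176) and Alpl higher (3.36, adjusted p = 0.00774) by the adjusted p. Without E4.5 replicate 3, 3 met the criterion as lower and 1 as higher. In that fit Dio3 (-5.02, adjusted p = 0.0121) and Bmp2 (-3.64, adjusted p = 0.00183) passed the adjusted p as lower, and Alpl as higher. E4.5 replicate 3 had the lowest NK cell sum of the table, 5.10 FPKM, and 97.2 FPKM of the members. The 15 ovary markers, none at 0 in all 6 libraries, had a high sum in E4.5 replicate 3 alone, and the members' median was -2.52 without that library and -2.53 with it.

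**Figure D2:**
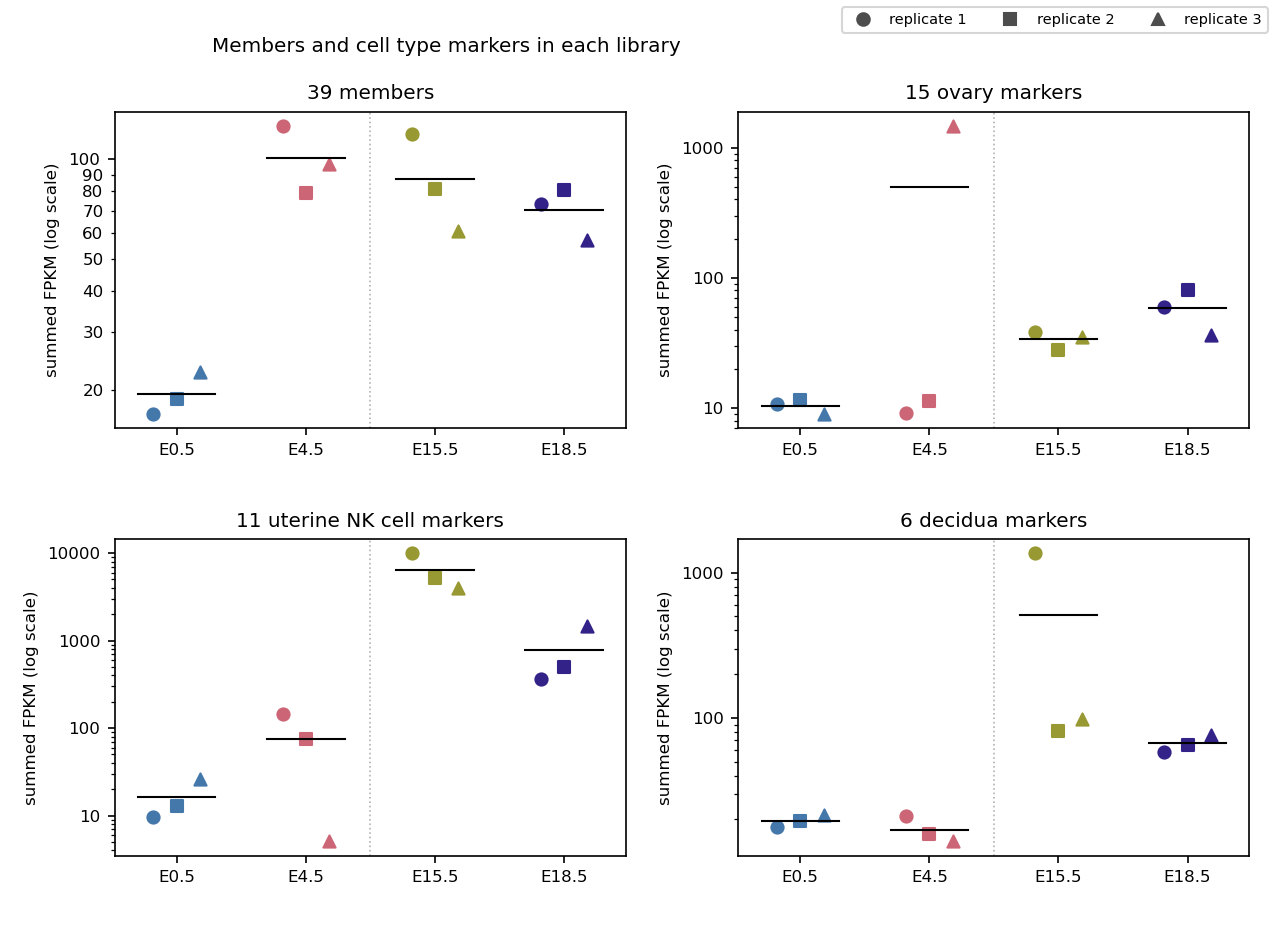
Each point is 1 library, its marker shape the replicate number, and each line the mean of 3 libraries, with the summed FPKM of the 39 members and of ovary, uterine NK cell and decidua markers on log axes. The 3 E0.5 libraries had 17.0 to 22.7 FPKM of the members and the 3 E4.5 libraries 79.0 to 126 FPKM, while E4.5 replicate 3 stood apart in ovary markers and E15.5 replicate 1 in decidua markers.

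At the labor stage, no member passed either rule. The members summed to 119, 81.3 and 60.5 FPKM in the E15.5 libraries and 73.3, 80.5 and 57.2 FPKM in the E18.5 libraries, and the groups overlapped for all 39 members, where 8.79% of all rows were lower at E18.5 without overlap and 10.9% higher. By limma on log2(FPKM + 0.1) with Benjamini-Hochberg adjustment over 29597 rows, 0 members passed, against 0.0439% of all rows in either direction and 0.0101% lower at E18.5. The study's criterion also called 0 members, against 5.60% of all rows in either direction and 2.71% lower at E18.5. At an unadjusted p under 0.05 there were 0 members, against 12% of all rows, the smallest unadjusted p being 0.0901, for Cdc25c. The log2 fold change (E18.5 minus E15.5) was negative for 28 members and positive for 11, with a median of -0.31 against 0.02 over all rows.

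This median changed with the libraries in the fit. E15.5 replicate 1, the library with the decidua markers, was the highest of the 6 for 27 members, and without it the median was -0.03 with 22 members negative. It was -0.16 without E18.5 replicate 3 and -0.52, with 31 members negative, without E15.5 replicate 3, the library with the highest yolk sac sum. The remaining 3 fits gave -0.38 to -0.32. The 95% intervals all spanned 0. For 17 members they lay wholly above -1, so that a 2-fold lower level at E18.5 fell outside them, and for the other 22 they did not, the lowest bound being -1.92. The highest bound of any member was 1.13.

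The members with the most negative and most positive values at the labor stage were described by the same fit. Cdc25c had 0.199, 0.577 and 0.335 FPKM at E18.5 and 1.18, 0.703 and 0.423 FPKM at E15.5, with a log2 fold change of -0.87 ± 0.442 (SE) and an adjusted p of 0.484. It met the study's criterion only where E15.5 replicate 3 or E18.5 replicate 2 was left out (log2 fold changes -1.19 and -1.17, adjusted p = 0.328 and 0.510). Ttk had 0.297, 0.413 and 0.373 FPKM at E18.5 and 1.04, 0.596 and 0.387 FPKM at E15.5 (log2 fold change -0.67 ± 0.360, adjusted p = 0.502). Ccnb2 had 3.32, 3.04 and 1.97 FPKM at E18.5 and 7.88, 3.15 and 2.76 FPKM at E15.5 (log2 fold change -0.58 ± 0.411, adjusted p = 0.609). For Cdc25c, Ttk and Ccnb2 alike, E15.5 replicate 1 was the highest library and E15.5 replicate 3 lay among the E18.5 values.

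At the other end, Cenpe had 3.68, 3.82 and 2.16 FPKM at E18.5 and 2.45, 2.59 and 2.56 FPKM at E15.5 (log2 fold change 0.29 ± 0.233, adjusted p = 0.646). The row of Mybl2, which in this table also holds the intraflagellar transport gene Ift52, had 1.89, 1.84 and 1.56 FPKM at E18.5 and 1.16, 1.41 and 1.77 FPKM at E15.5 (log2 fold change 0.29 ± 0.206, adjusted p = 0.615). Anln had 5.33, 5.69 and 4.93 FPKM at E18.5 and 5.25, 4.94 and 3.86 FPKM at E15.5 (log2 fold change 0.19 ± 0.157, adjusted p = 0.659). The groups of each of these 3 genes overlapped.

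The most abundant member of each role overlapped as well, Cenpe, Mybl2 and Anln being given above and Incenp after these. Ccna2 had 3.01, 4.11 and 2.70 FPKM at E18.5 and 7.60, 4.01 and 3.36 FPKM at E15.5. Mki67 had 7.18, 8.44 and 5.54 FPKM at E18.5 and 14.0, 8.91 and 6.12 FPKM at E15.5. Kif11 had 2.66, 3.27 and 2.05 FPKM at E18.5 and 6.51, 3.93 and 2.35 FPKM at E15.5. For Ccna2, Mki67 and Kif11 the highest library was E15.5 replicate 1, and the adjusted p of the latter pair was 0.644 and 0.576. Top2a, next to Mki67 in chromosome structure, had 4.59, 6.44 and 3.59 FPKM at E18.5 and 10.6, 6.37 and 3.88 FPKM at E15.5. Cdc20 had 2.74, 2.89 and 2.80 FPKM at E18.5 and 4.14, 2.96 and 2.56 FPKM at E15.5. Top2a and Cdc20 were likewise highest in E15.5 replicate 1. Bub1b had 1.21, 1.23 and 0.931 FPKM at E18.5 and 1.46, 1.75 and 1.08 FPKM at E15.5. Ect2, most abundant of its role at E4.5, had 2.03, 2.45 and 1.5 FPKM at E18.5 and 2.96, 1.91 and 1.56 FPKM at E15.5. Bub1b and Ect2 had adjusted p-values of 0.632 and 0.935.

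Incenp and Aurka had the log2 fold changes nearest 0 at this stage. Incenp had 2.80, 3.05 and 2.34 FPKM at E18.5 and 2.21, 3.32 and 2.67 FPKM at E15.5, with a log2 fold change of 0.01 ± 0.197 and a 95% interval from -0.46 to 0.47. Aurka had 1.41, 1.51 and 0.938 FPKM at E18.5 and 1.01, 1.54 and 1.23 FPKM at E15.5 (log2 fold change 0.02 ± 0.254). Cenpa had 1.15, 1.06 and 0.841 FPKM at E18.5 and 0.875, 0.891 and 0.875 FPKM at E15.5 (log2 fold change 0.18 ± 0.203). For these 3 genes, as for 9 other members, E15.5 replicate 1 was not the highest library.

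Marker sums at the labor stage moved with the days, and their part in these values was not tested. The 11 uterine NK cell markers summed to 3959 to 9928 FPKM at E15.5 and 362 to 1487 FPKM at E18.5, and all 11 met the study's criterion as lower at E18.5 while none passed the adjusted p. The 8 epithelial markers summed to 202 to 449 FPKM at E15.5 and 663 to 923 FPKM at E18.5, and 5 of the 8 met the criterion as higher at E18.5. It was also met by 3 of 8 tested ovary markers, higher at E18.5, and by 3 of 9 tested erythroid markers, lower. The 12 trophoblast and placenta markers with a row summed to 12 to 47.8 FPKM at E15.5 and 58.4 to 114 FPKM at E18.5, without overlap, and of the 10 tested 4 met the criterion as higher at E18.5. The 8 yolk sac markers summed to 14.0, 174 and 1089 FPKM in the E15.5 libraries and 291, 787 and 220 FPKM in the E18.5 libraries. Of these 8 markers, 1 met the criterion as lower at E18.5. Of the 6 decidua markers 5 were tested, 1 of them, Wnt4, met the criterion as higher at E18.5 (1.24), and their high sum was that of E15.5 replicate 1 alone.

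**Figure D3:**
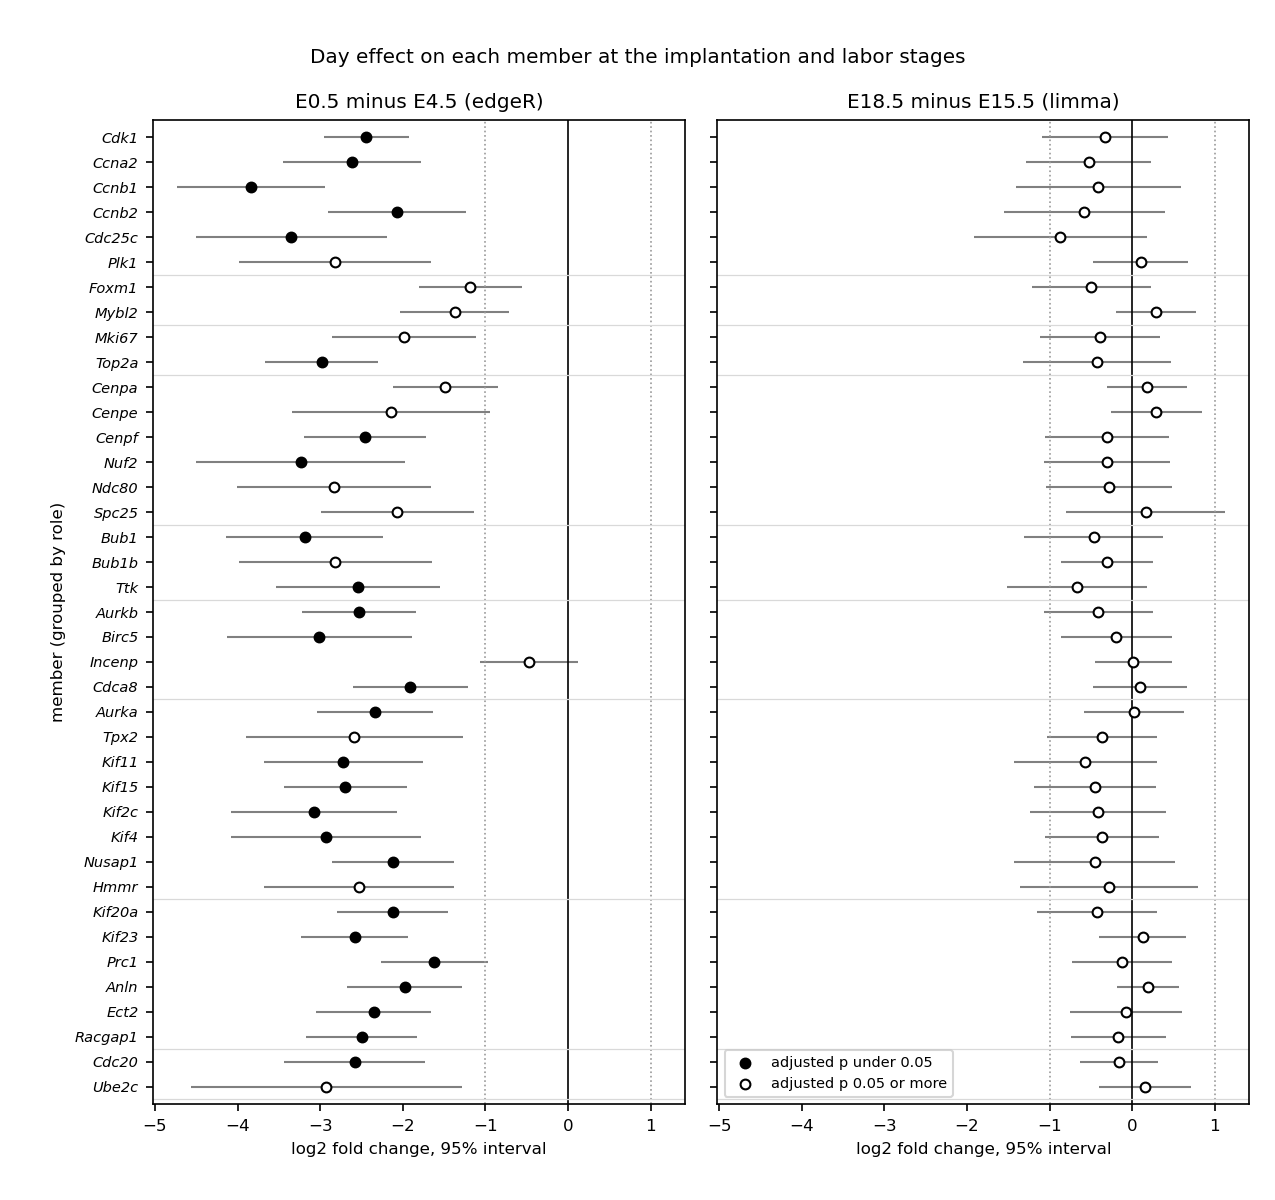
The points show the fitted log2 fold change of each member and the bars its 95% interval, for E0.5 minus E4.5 on the left and E18.5 minus E15.5 on the right, with filled points past the adjusted p and dotted lines at a 2-fold difference. On the left 26 points are filled and all 39 lie below 0, and on the right none is filled and all 39 intervals cross 0.

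The order of the members by level differed between the tables. Top2a (9.28 ± 2.97 FPKM, SD, n = 3), Ccna2 (5.71 ± 1.52 FPKM) and Cdc20 (5.47 ± 1.63 FPKM) led at E4.5, and their spreads overlapped. At E15.5 the order was led by Mki67 (9.67 ± 3.97 FPKM), Top2a (6.93 ± 3.37 FPKM) and Ccna2 (4.99 ± 2.29 FPKM), whose spreads overlapped. At E18.5 it was led by Mki67 (7.05 ± 1.46 FPKM), Anln (5.32 ± 0.382 FPKM) and Top2a (4.87 ± 1.44 FPKM), which also overlapped. Ndc80 was last of 39 at E0.5 and E4.5, and Ttk and Foxm1 were last at E18.5 and E15.5, at 0.361 ± 0.0593 and 0.607 ± 0.178 FPKM. Because the tables were assembled separately, these orders are descriptions and were not tested.

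The difference between the stages was tested directly, as the E0.5 minus E4.5 change less the E18.5 minus E15.5 change, by limma on log2(FPKM + 0.1) over all 12 libraries. It was negative for 39 of 39 members, and 21 passed the adjusted p over 20244 paired rows, where 1.56% of all rows were lower by the same rule and 3.02% differed in either direction. The study's criterion was met by 37 members, against 6.46% of all rows. The median was -1.98 for the members and -0.14 for all rows. Among the roles, both partners of the anaphase-promoting complex passed, with 4 of 6 genes of mitotic entry, 4 of 6 of the midzone and cytokinesis, 3 of 4 of the passenger complex, 3 of 6 of the kinetochore, 2 of 3 of the checkpoint, 1 of 8 of spindle assembly, 1 of 2 of chromosome structure (Top2a) and 1 of 2 transcription factors (Mybl2, whose row holds Ift52 in the second table alone). The lowest adjusted p was that of Kif23, 0.00592, at a difference of -2.37 ± 0.326 (SE). Anln followed at -2.004 ± 0.308 (adjusted p = 0.00886) and Cdc20 at -2.31 ± 0.366 (adjusted p = 0.00955). The largest difference was that of Ccnb1, -3.08 ± 0.547 (adjusted p = 0.0169). Foxm1 (-0.57, adjusted p = 0.482) and Incenp (-0.48, adjusted p = 0.455) were the 2 that missed both rules. The rows of Foxm1 are also unlike, since Tex52 and Gm43965 are merged into it in the first table alone and 4933413G19Rik in the second alone. The adjusted count depended on the libraries in the fit, as did the share of all rows called lower. It was 24 (1.41% of all rows) without E15.5 replicate 1, the library with the decidua markers, and 23 (3.49%) without E4.5 replicate 3, that with the ovary markers, where 36 members met the criterion and the median was -1.94. It fell to 5 (0.366%) without E18.5 replicate 2, 6 (0.390%) without E15.5 replicate 2 and 7 (0.529%) without E18.5 replicate 1. It was 9 (0.751%) without E4.5 replicate 1, 10 without E0.5 replicate 2 (0.726%) or E15.5 replicate 3 (0.815%), and 12 (0.756%) without E0.5 replicate 1. In each of these fits 36 or 37 members met the criterion. With a pseudocount of 1 in place of 0.1, which shrinks the fold changes of low genes, 18 members passed the adjusted p (1.67% of all rows), 15 met the criterion and the median was -0.94.

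Other genes of the division cycle were read in the same fits. Of 25 further kinetochore and checkpoint genes, 6 were downregulated at E0.5 by the adjusted p and 12 by the study's criterion, with a median log2 fold change of -1.75. Ska3, of the complex that couples kinetochores to microtubule ends, had 0.103, 0.266 and 0.176 FPKM at E0.5, against 1.41, 1.35 and 1.64 FPKM at E4.5 (log2 fold change -2.97 ± 0.422, adjusted p = 0.0331). Cenpi, of the inner kinetochore, had a log2 fold change of -2.75 ± 0.374 (adjusted p = 0.0299). The lowest value of that list, -3.22, was that of a gene that missed the adjusted p. Of 20 further spindle and cytokinesis genes with a row, 9 were downregulated and 18 met the criterion, with a median of -2.27. Among the 9, the largest fold changes were those of Dlgap5 (-2.85 ± 0.360, adjusted p = 0.0261) and Spag5 (-2.80 ± 0.370, adjusted p = 0.0282), which both stabilize spindle microtubules. Pimreg (-2.98, adjusted p = 0.104) and Ckap2 (-2.90, adjusted p = 0.0852) had larger values and met the criterion without passing the adjusted p. Of 19 rows of condensin and cohesion genes, 5 were downregulated and 10 met the criterion, with a median of -1.20. The condensin subunit Ncapg had 0.199, 0.232 and 0.303 FPKM at E0.5, against 2.45, 1.92 and 2.23 FPKM at E4.5 (log2 fold change -3.13 ± 0.263, adjusted p = 0.0124), and separase, Espl1, had a log2 fold change of -2.39 ± 0.344 (adjusted p = 0.0338).

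The anaphase-promoting complex is made of subunits present throughout the cycle, and its list had the median nearest 0 of these lists. Of 17 genes of the complex and its regulators, 0 passed the adjusted p in edgeR, and 3 were called in DESeq2, all lower at E0.5 (Cdc23, Fbxo5 and Ube2s), with 10.1% of all rows in either direction. In edgeR 5 had an unadjusted p under 0.05, with 17.6% of all rows, 13 of 17 were negative, and the median was -0.23 against -0.03 over all rows. The inhibitor Fbxo5 was the only gene of that list to meet the criterion (-1.51 ± 0.330, adjusted p = 0.0799). Of 30 DNA replication genes, 11 were downregulated at E0.5 and 21 met the criterion, with a median of -1.33. They were led by Rrm2, the small subunit of ribonucleotide reductase (-4.54 ± 0.708, adjusted p = 0.0414), and the licensing factor Cdc6 (-2.83 ± 0.420, adjusted p = 0.0364). Of 18 tested G1 cyclins, kinases and inhibitors, 1 was downregulated, Ccne2 (-1.63 ± 0.229, adjusted p = 0.0324), while 5 met the criterion as lower and 3 as higher, with a median of -0.54. The lowest value of that list, -2.87, missed the adjusted p. Of 18 E2F and DREAM genes, 1 was downregulated, E2f7 (-1.85 ± 0.281, adjusted p = 0.0384), with 3 meeting the criterion and a median of -0.43. The lowest value of that list, -3.60, also missed the adjusted p. Of all rows, 0.569% were lower by the adjusted p, and 5.98% were lower and 12.1% differed in either direction by the criterion. Without E4.5 replicate 3, where 3.39% of all rows were lower by the adjusted p, the counts past it were 9 of 25 kinetochore and checkpoint genes, 15 of 20 spindle and cytokinesis genes, 8 of 19 condensin and cohesion rows, 18 of 30 DNA replication genes and 1 of 17 of the anaphase-promoting complex. They were 5 lower and 1 higher among the G1 genes and 2 lower among the E2F and DREAM genes. The latter were E2f8 (-4.08, adjusted p = 0.00156) and E2f7 (-1.98, adjusted p = 0.0111).

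At the labor stage, 0 genes of these 7 lists passed the adjusted p in limma, and the list medians lay between -0.27 and 0.02. The study's criterion was met by 3 genes. Rrm2 had 6.70, 10.9 and 20.8 FPKM at E18.5 and 131, 76.3 and 56.4 FPKM at E15.5 (log2 fold change -2.83 ± 0.458, adjusted p = 0.118). Its groups did not overlap. Rrm1, the large subunit of the same enzyme, had 4.76, 6.27 and 6.93 FPKM at E18.5 and 26.2, 10.9 and 8.85 FPKM at E15.5 (-1.19 ± 0.396, adjusted p = 0.312). Without E15.5 replicate 1 Rrm1 had -0.72 and missed the criterion, while Rrm2 met it at -2.50 (adjusted p = 0.208). Cdkn1c, an inhibitor of cyclin-dependent kinases, had 1.74 ± 0.351 (adjusted p = 0.154), and 1.62 without that library.

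**Figure D4:**
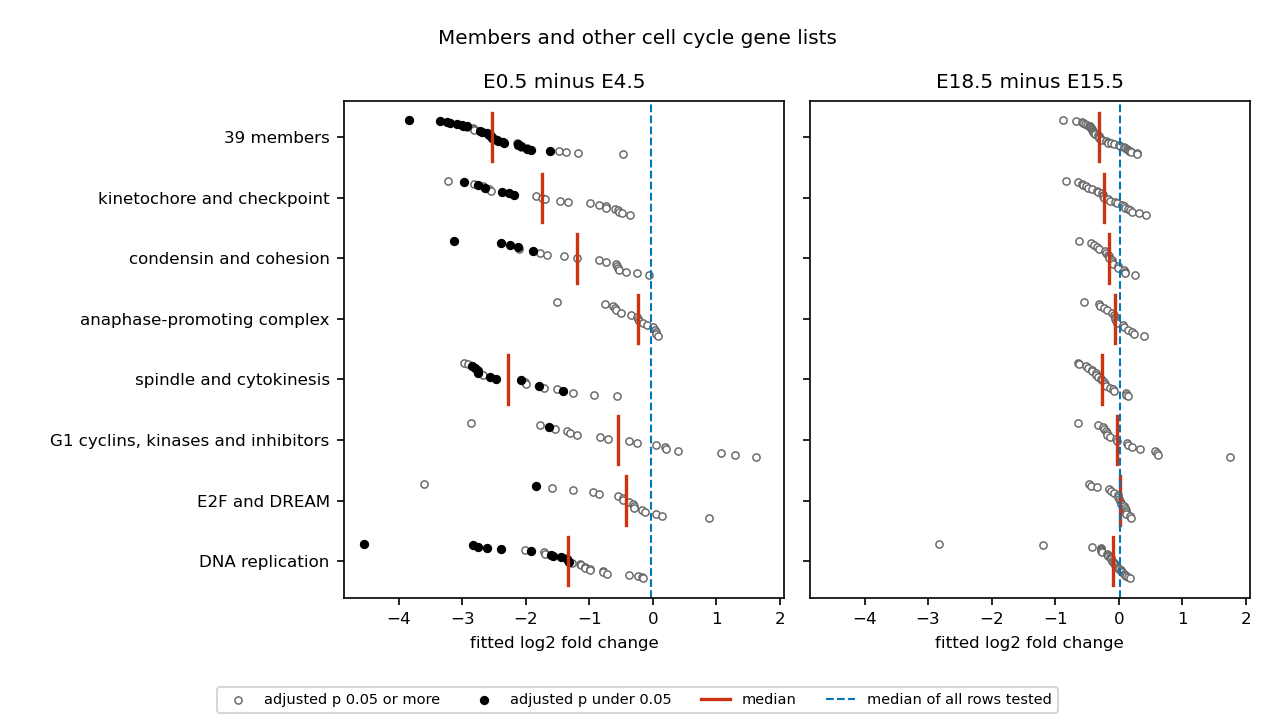
Each point is 1 gene of a list, placed by its fitted log2 fold change at the implantation stage on the left and the labor stage on the right, with filled points past the adjusted p, red bars at list medians and a dashed line at the median of all rows. On the left the members had the lowest median, -2.53, and the anaphase-promoting complex the one nearest 0, -0.23, and on the right every list median lay between -0.31 and 0.02.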

How the data were processed

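RNA-Seq libraries of 12 whole uteri were analysed, 3 per day. Per the labels the libraries were poly(A)-selected, whereas the study's methods describe ribosomal RNA depletion. Reads had been aligned and assembled with StringTie by the authors, and the submitters' processing notes name Bowtie 0.12.2, HISAT2 2.0 and StringTie 1.3.0, with builds mm8 and mm10. Coordinates in the first table matched GRCm38. The authors deposited FPKM and whole-number counts per gene for E0.5 and E4.5, with 0.0001 written for 0 (set back to 0 here), and FPKM alone for E15.5 and E18.5. FPKM of 1 read in low rows (under 0.05 FPKM) gave the relative depth of the second table.

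Rows without a gene name (7007 of 87235 with 1.02% to 1.86% of counts, and 1332 of 40787) were left out, and a row was tested where its 6 libraries averaged 0.1 FPKM or more. E0.5 and E4.5 were compared on counts with edgeR 4.0.16 (R 4.3.3, TMM factors, quasi-likelihood F-test), and E18.5 and E15.5 with limma 3.58.1 (trend) on log2(FPKM + 0.1), so that a fold change understates the change of low genes. The difference between the stages was fitted with limma over rows of both tables paired by gene name and shared Ensembl transcripts (30186 rows). All tests are two-sided, and p-values were adjusted over all rows tested by the Benjamini-Hochberg method. For limma, SEs and 95% intervals came from the moderated fits. For edgeR they were worked back from the log2 fold change and its F statistic, so they are approximate. P-values rest on the spread between 3 mice per day, which edgeR modelled together with the sampling error of the counts.

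On simulated data with 200 rows changed by 2 on the log2 scale, edgeR recovered 99.5% with 2 false calls over 52738 rows (E0.5 against E4.5), and limma recovered 100% with 8 false calls over 29597 rows (E18.5 against E15.5). The changed rows were drawn from better-expressed rows, at least 1 FPKM for limma, with noise independent between rows. Some members lay lower, and members moved together between libraries. These rates therefore do not give the share of true changes that would be found among the members. Alternatives were other normalizations, filters, pseudocounts and tools, including DESeq2 1.42.0, a block for the replicate number and fits without each library in turn. The members, their roles and the lists of other genes and markers were chosen with earlier results of these data known. Every member could be named. Values in every library were given for members past the adjusted p, for the 3 highest and 3 lowest fold changes of a stage and for the most abundant member of each role, with Mki67 at the implantation stage and Top2a, Ect2, Aurka and Cenpa at the labor stage added after their values were seen, and from each list of other genes the 2 largest fold changes past the adjusted p, or those meeting the study's criterion where none passed. Promoter motifs were not analysed here, since no sequence was given.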

Additional observations from a re-analysis of the deposited data

Results flagged for a closer look

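The difference of the day effect between the stages, as the E0.5 minus E4.5 change less the E18.5 minus E15.5 change on the log2(FPKM + 0.1) scale, was past the adjusted p (limma, Benjamini-Hochberg) for 21 members, all negative. In mitotic entry it was -1.98 for Cdk1, -2.004 for Ccna2, -3.08 for Ccnb1 and -2.82 for Plk1. Among the genes of transcription and chromosome structure it was -1.50 for Mybl2, whose row in the second table merges Ift52, and -2.43 for Top2a. In the kinetochore it was -1.54 for Cenpa, -2.07 for Cenpe and -2.25 for Nuf2, and in the checkpoint -2.43 for Bub1 and -2.36 for Bub1b. In the passenger complex it was -1.94 for Aurkb, -2.52 for Birc5 and -1.73 for Cdca8, and in spindle assembly -2.21 for Aurka. At the midzone it was -2.37 for Kif23, -2.004 for Anln, -2.11 for Ect2 and -2.02 for Racgap1, and among the partners of the anaphase-promoting complex -2.31 for Cdc20 and -2.85 for Ube2c. Plk1, Cenpa, Cenpe, Bub1b, Mybl2 and Ube2c passed this test without passing the adjusted p at the implantation stage itself, where a count model was used.

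Outside the rows compared, 11 assembled rows of 208 to 1093 bases carried the names of 8 members (Kif4, Racgap1, Cdca8, Prc1, Kif23, Ccnb2, Ttk and Kif15) without an Ensembl transcript. Their signal exceeded 3 counts over the 6 libraries in all 11. They held 118, 157 and 234 counts in the E0.5 uteri but 578, 516 and 397 in the E4.5 uteri, and 10 of the 11 had more counts at E4.5, the exception being the row named for Ccnb2, with 83 counts at E0.5 and 13 at E4.5. These rows were not tested.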

How the results depend on the processing

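At the implantation stage the direction held for every member under all 14 alternatives that tested it, and 0 members were higher by either rule. The count past the adjusted p was 26, with 0.569% of all rows lower. It was 38 in DESeq2 (5.01%), 26 with size factors of DESeq2 (0.595%) or upper quartile factors (0.548%) and 29 without a filter (0.550%). It was 25 with unnamed rows kept (0.459%, an alternative added after the data were seen). By limma on log2(FPKM + 0.1) it was 15 (0.550%), and the median moved from -2.53 to -2.19. With a mean of at least 1 FPKM only 24 members were tested, and 23 met the study's criterion. In that fit 20.7% of all rows had an unadjusted p under 0.05 in either direction. Fits without 1 library left 0 to 38 members past the adjusted p. At the labor stage 0 members passed the adjusted p under any alternative, leave-one-out counts by the study's criterion ran from 0 to 1, and medians lay between -0.52 and -0.03. For the difference between the stages, the adjusted count of 21 was 13 and the criterion count 20 at a mean of at least 1 FPKM in both tables (21 members tested). With a pseudocount of 1 the criterion count was 15, where 19.0% of all rows had an unadjusted p under 0.05, and the median was -0.94. Leaving out 1 library gave 5 to 24 members past the adjusted p. Replicate numbers did not pair the libraries (same-number correlations of deviations -0.074 to 0.023). With the replicate block, 0 members passed the adjusted p at the implantation stage, as did 0 of all rows, and 5 for the difference between the stages, with 0.247% of all rows lower, while 38 and 37 met the criterion. Promoter motifs were not run. Low levels limit both stages, with 33 members under 1 FPKM in all E0.5 libraries, 9 in all E18.5 libraries and 3 in all E15.5 libraries, and no counts were analysed at the labor stage.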

Other observations

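Some sums of cell type markers were not given in full above. Erythroid markers summed to 63.6 to 704 FPKM at the implantation stage and 543 to 1678 FPKM at the labor stage, and the days overlapped in both. The 9 leukocyte markers summed to 73.1 to 87.1 FPKM at E18.5 and 79.5 to 109 FPKM at E15.5. Over all 12 libraries, yolk sac markers summed to 2.91 to 1089 FPKM, oviduct markers to 13.9 to 99.3 FPKM and fat markers to 3.55 to 64.9 FPKM. The highest oviduct sum was that of E4.5 replicate 3, the library with the ovary markers.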
